A study of Mus musculus with 2 samples.

Results

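The genes described here encode integrins, laminins and collagens, the receptors and fibrous or sheet-forming proteins through which an epithelium holds on to its matrix. They were taken by symbol from a table of read counts in mouse intestinal organoids, as every symbol that names an integrin alpha or beta subunit, a laminin alpha, beta or gamma chain or a collagen alpha chain, if either library had 10 counts or more. This gave 47 of the 19294 genes listed. There were 19 integrin subunits, 7 laminin chains and 17 collagen chains, and a further 4 genes matched by their symbols only and encode other proteins. The count minimum left out 3 matched genes, which were Col2a1 with 9 and 5 counts, Col8a2 with 6 and 6 and Col12a1 with 2 and 6 in the control and DSS libraries. Just inside it were Col6a1 with 5 and 12 counts and Itga5 with 13 and 4.

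The study treated the organoids with dextran sulfate sodium (DSS), a sulfated polysaccharide that damages the epithelium, and compared them with an untreated control by mRNA-seq. One control library and one DSS library were made at day 4, both from organoids of the Lgr5-EGFP-IRES-creERT2 genotype, in which EGFP is expressed from the locus of the stem cell receptor Lgr5. Organoids were grown from jejunal crypts in Matrigel, itself a basement membrane extract rich in laminin and type IV collagen, with EGF, Noggin and R-spondin in the medium of both groups. Each group was 1 library. Whether its RNA came from 1 culture or from several pooled is not given in the sources used here, nor is the DSS dose.

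Integrins are transmembrane receptors made of an alpha and a beta subunit, and the pair decides whether laminin, collagen or proteins with an RGD sequence are bound. Laminins are trimers of an alpha, a beta and a gamma chain that form the sheet under the epithelium, where type IV collagen forms a parallel network and nidogen joins the networks. In the intestine the epithelium makes part of this sheet and the mesenchyme beneath it makes the rest, including most of the type IV collagen and the fibrillar collagens of the stroma. Hemidesmosomes, built on the integrin of the Itga6 and Itgb4 subunits, tie the laminin sheet to the keratin filaments.

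Depth was alike, at 65493032 counts (control) and 59746968 counts (DSS). All 7 epithelial markers were listed, with summed levels of 6249 and 9634 CPM (the usual unit of counts relative to library size, here after scaling by the trimmed mean of M values, TMM) in control and DSS, and Epcam was at 941 and 960 CPM. Of 11 fibroblast and smooth muscle markers, 6 had counts and summed to 6.97 and 36.2 CPM, of which Vim made up 5.23 and 34.0, while the other 5 summed to 1.75 and 2.25. Dcn, Lum, Des, Myh11 and Fbn1 were not among the genes listed. For endothelium, 2 of 5 markers summed to 0.866 and 1.39 CPM, without Cdh5, Kdr and Cldn5, and for leukocytes 3 of 7 summed to 8.94 and 13.0 CPM, with Ptprc, Cd3e and Adgre1 among those without counts. The table lists only genes with at least 1 count in both libraries, so an unlisted gene had no count in at least one of them or was left out for another reason. The labels call the cells intestinal stem cells, and the libraries are of whole organoids with epithelial markers far above the others. In such bulk RNA, fewer cells of a type and less RNA per cell cannot be told apart.

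The mRNA of matrix and adhesion genes moved in both directions, with the basement membrane collagens on one side and a laminin beta chain on the other. A log2 ratio of TMM-scaled counts (DSS over control) of 1 or more, that is a doubling, was found for 16 of the 47 genes (34.0%), against 19.3% of the 17235 genes that met the same count minimum. A log2 ratio of -1 or less was found for 6 (12.8%), against 20.2% of all genes. A ratio of 2 or more was found for 9 of them and 7.87% of all genes, and a ratio of -2 or less for 1 and 6.54%. The median log2 ratio was 0.68 over the 47 genes and -0.06 over all genes. With 1 library in each condition no test was possible, and the 95% intervals given with each ratio are exact Clopper-Pearson intervals that cover counting error only, not the variation between cultures. For 5 of the 47 genes only one library reached 10 counts, and such a gene entered through the library in which it was higher. With at least 50 counts asked of one library, 10 genes in place of 16 were at 1 or more, and with at least 10 counts in both it was 13 of 42. At -1 or less, 4 genes in place of 6 were left under either of these minimums. The shares of all genes under these minimums were not computed.

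The lines were passed unevenly by the 3 families. Of the 17 collagen chains, 11 (64.7%) were at a log2 ratio of 1 or more and 0 at -1 or less, with a median of 1.39 and a range from -0.62 to 5.25. Of these 11, Col15a1, Col6a1 and Col25a1 reached 10 counts in the DSS library only. With 10 counts in both libraries 8 of 14 collagen chains were at 1 or more, with a median of 1.02. Among the 11, 7 had under 100 counts in both libraries. The intervals of Col6a1, Col8a1, Col9a3, Col17a1 and Col27a1 began below 1. Of the 19 integrin subunits, 4 lay past each line, with a median of 0.57. Of the 4 at -1 or less, Itga5 and Itgae reached 10 counts in the control library only. With 10 counts in both libraries the integrin median was 0.68. Of the 7 laminin chains 1 lay on each side, with a median of 0.75. Scaling by total counts, in place of TMM, lowered every ratio by 0.26 and set the median of all genes at -0.31.

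**Figure D1:**
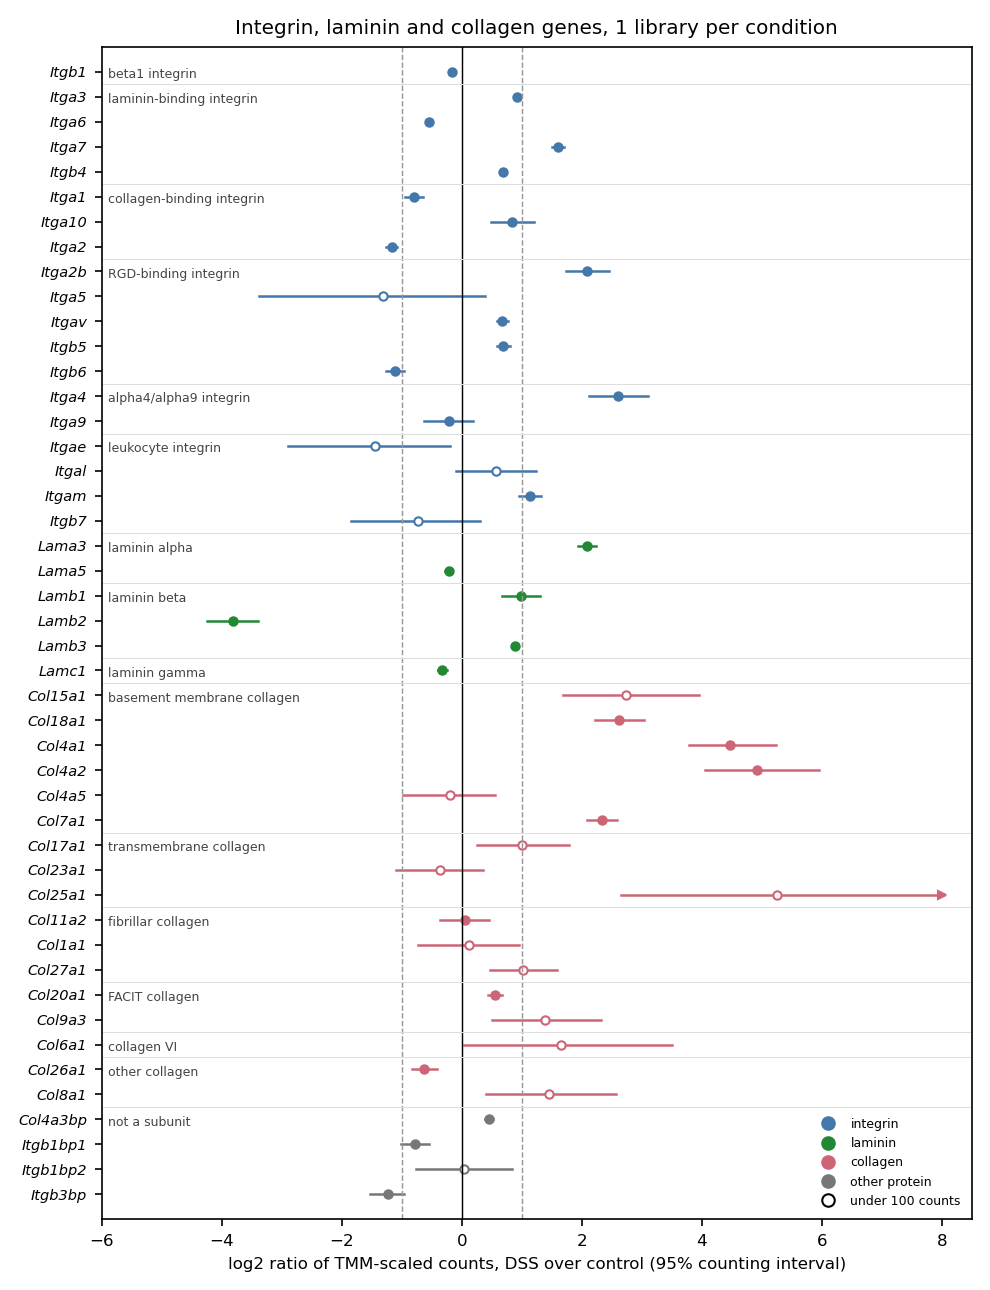
Log2 ratio of TMM-scaled counts, DSS over control, for 46 of the 47 genes on the horizontal axis, grouped by role. Points are ratios of 1 library to 1 library, bars are 95% counting intervals, open points had under 100 counts in both libraries, dashed lines mark ratios of -1 and 1, and the arrow marks an interval that runs past the axis. Col4a1 and Col4a2 stand far to the right and Lamb2 far to the left.

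The largest ratios among the collagens with at least 100 counts were those of Col4a1 and Col4a2, which encode the chains of the common type IV collagen network. The genes lie head to head. In the RefSeq annotation of the mouse build GRCm38.p6 their starts are 21 bases apart on chromosome 8, Col4a1 on the minus strand and Col4a2 on the plus strand. Their promoter windows, each from 250 bases before to 50 after the start, are shown because the pair shares this stretch and moved together. The capitals mark the 78 bases held by both windows, chr8:11312777-11313076 for Col4a1 and chr8:11312555-11312854 for Col4a2, and each sequence is written 5′ to 3′ on the strand of its gene, so that the capitals of one are the reverse complement of the other.
Col4a1: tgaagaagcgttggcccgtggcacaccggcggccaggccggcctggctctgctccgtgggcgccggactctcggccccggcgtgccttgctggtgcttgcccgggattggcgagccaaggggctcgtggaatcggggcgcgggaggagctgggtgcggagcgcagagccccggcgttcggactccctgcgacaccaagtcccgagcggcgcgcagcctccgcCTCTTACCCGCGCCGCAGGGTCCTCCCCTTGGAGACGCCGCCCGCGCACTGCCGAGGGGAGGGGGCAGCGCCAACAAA
Col4a2: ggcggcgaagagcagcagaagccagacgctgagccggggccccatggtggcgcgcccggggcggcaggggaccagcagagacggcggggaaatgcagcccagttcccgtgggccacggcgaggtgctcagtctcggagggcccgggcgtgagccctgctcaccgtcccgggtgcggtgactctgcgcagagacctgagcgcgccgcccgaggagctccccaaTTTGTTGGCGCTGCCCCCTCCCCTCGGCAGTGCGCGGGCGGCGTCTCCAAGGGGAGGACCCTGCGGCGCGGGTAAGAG
The windows were rich in G and C, at 74.0% and 73.7%, against a median of 52.7% over all promoter windows in the table, and the shared bases at 73.1%.

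Col4a1 had 18 counts in the control library and 304 in the DSS library, a log2 ratio of 4.47 (95% interval 3.78 to 5.24). Col4a2 had 11 and 255 counts, a ratio of 4.92 (4.06 to 5.94). Ordered by ratio, they stood at ranks 94 and 54 from the highest of the 13203 genes for which either library had 100 counts. Within the pair, Col4a1 took 62.1% of the reads in the control library (42.3% to 79.3%) and 54.4% in the DSS library (50.2% to 58.6%), so the intervals of the shares overlapped. The third type IV chain listed, Col4a5, which belongs to a different network, had 39 and 26 counts and a ratio of -0.20, with an interval that included 0. Col4a3, Col4a4 and Col4a6 were not listed. Where the first exons of a head-to-head pair overlap, reads can be told apart only if the counting used strand. Whether it did is not given in the sources used here.

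The other collagens of the basement membrane zone were also higher in the DSS library. Col7a1, whose product forms the anchoring fibrils below the sheet, had 162 and 623 counts and a log2 ratio of 2.33 (2.08 to 2.59). Col18a1, the collagen from which endostatin is cut, had 63 and 295 counts and a ratio of 2.62 (2.22 to 3.03). Its relative Col15a1 had 9 and 46 counts and a ratio of 2.74 (1.69 to 3.96). In all, 5 of 6 basement membrane collagens were at 2 or more, against 7.87% of all genes. Without Col15a1, which reached 10 counts in the DSS library only, it was 4 of 5, and the share of all genes with 10 counts in both libraries was not computed. Col17a1, planned for this group but counted with the transmembrane collagens, had a ratio of 1.01. The summed counts of the 6 basement membrane collagens were 302 and 1549, or 4.22 and 28.3 CPM. Vim, the fibroblast marker that epithelial cells can also express, moved with them, as given above. So did Acta2, with 4 and 20 counts and a ratio of 2.71 (1.13 to 4.72), and Tagln, with 2 and 10 counts and a ratio of 2.71 (0.48 to 5.94). Pdgfra had 3 and 7 counts, with an interval that included 0. Pdgfrb had 67 and 64 counts, with a ratio of 0.32 (-0.19 to 0.84), and Postn 49 and 22, with a ratio of -0.77 (-1.56 to -0.01). The endothelial markers with counts, Pecam1 and Vwf, differed in direction, with 12 and 55 and with 50 and 21 counts. The part of other cells in these collagen counts was not tested.

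The fibrillar and type VI chains, grouped here as stromal collagens, had few counts. Of the fibrillar chains, Col11a2 had 115 and 91 counts. Its log2 ratio of 0.05 (-0.36 to 0.46) turned to -0.21 when scaled by total counts. Col1a1, the main chain of type I collagen, had 29 and 24 counts and a ratio of 0.12, which also changed sign with that scaling, and Col27a1 had 47 and 73. Col1a2, Col3a1, Col5a1 and Col5a2 were not listed. The one type VI chain listed, Col6a1, had 5 and 12 counts. Summed over the 3 fibrillar chains the counts were 191 and 188, or 2.67 and 3.44 CPM. The log2 ratio of these sums was 0.37 (0.07 to 0.66).

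Among the remaining collagens, the chain with the most counts was Col20a1, a collagen that associates with fibrils. It had 1156 and 1296 counts and a log2 ratio of 0.55 (0.44 to 0.67), and so held 1156 of the 2326 collagen counts of the control library. Col26a1 had 569 and 282 counts and a ratio of -0.62 (-0.84 to -0.42), the lowest of the 17 chains. Col17a1, the transmembrane collagen of hemidesmosomes, had 26 and 40 counts. The highest ratio of all, 5.25 for Col25a1, came from 1 and 29 counts and has an interval from 2.65 to 10.60. The other chains, Col8a1, Col9a3 and Col23a1, had between 12 and 47 counts in each library and ratios of 1.45, 1.39 and -0.36.

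The laminin chains differed in direction. Lama3 and Lamb3 encode chains of the laminin that hemidesmosomes bind, and both were higher in the DSS library. Lama3 went from 449 counts (control) to 1458 (DSS), a log2 ratio of 2.09 (1.93 to 2.24). Lamb3 had 9074 and 12863 counts and a ratio of 0.89 (0.85 to 0.93), so that Lama3 lay past the line of 1 and Lamb3 did not. Lama5 and Lamc1, which belong to other laminins, were lower. Lama5, the alpha chain of the villus basement membrane, had 5373 and 3531 counts and a ratio of -0.22 (-0.28 to -0.16). Lamc1, the gamma chain that most laminins share, had 4315 and 2636 counts and a ratio of -0.32 (-0.39 to -0.25).

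Lamb2, a beta chain that pairs with Lama5 and Lamc1, had 917 counts in the control library and 50 in the DSS library. Its log2 ratio of -3.81 (-4.25 to -3.40) is a level 14.0-fold lower, the lowest ratio of the 47 genes and the 175th lowest of the same 13203 genes. The other beta chain, Lamb1, had 143 and 216 counts and a ratio of 0.98 (0.67 to 1.30), which went to 1.07 with upper quartile scaling. Of the reads of the pair, Lamb2 held 86.5% in the control library (84.3% to 88.5%) and 18.8% in the DSS library (14.3% to 24.0%), a comparison chosen after the values were seen. Lama1, Lama2, Lama4 and Lamc3 were not listed.

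The promoter window of Lamb2 is shown beside that of Lamb3, the beta chain with the most counts, whose ratio had the other sign, as had that of Lamb1. Both are RefSeq windows of GRCm38.p6 on the plus strand, chr9:108479612-108479911 for Lamb2 and chr1:193301744-193302043 for the upstream one of the Lamb3 starts. Capitals mark any match to 4 sets of letters searched on both strands, TGANTCA (AP-1), GGAATG (TEAD), GGGCGG (SP/KLF) and CTTTGA (TCF/LEF).
Lamb2: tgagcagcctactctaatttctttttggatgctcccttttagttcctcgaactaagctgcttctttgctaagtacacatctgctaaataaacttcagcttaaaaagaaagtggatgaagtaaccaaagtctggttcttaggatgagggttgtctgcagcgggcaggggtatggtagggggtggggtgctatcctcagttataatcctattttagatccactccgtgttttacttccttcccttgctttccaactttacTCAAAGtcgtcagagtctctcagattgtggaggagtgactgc
Lamb3: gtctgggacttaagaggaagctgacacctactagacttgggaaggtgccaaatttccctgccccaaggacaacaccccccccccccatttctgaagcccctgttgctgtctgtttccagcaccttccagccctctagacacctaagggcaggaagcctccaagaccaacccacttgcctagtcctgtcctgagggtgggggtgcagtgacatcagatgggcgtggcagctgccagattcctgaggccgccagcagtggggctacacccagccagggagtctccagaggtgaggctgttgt
Lamb2 held 1 match, the letters CTTTGA on the opposite strand, and Lamb3 held 0 in this window. The window of the downstream Lamb3 start, which overlaps this one, held 1 match to GGAATG, on the opposite strand. Promoters were found for 35 of the 47 genes, with 39 windows. The letters CTTTGA were in 8 of these 39 (20.5%), against 16.0% of all windows and 12.9% of those of the genes above the count minimum. TGANTCA was in 3 (7.69%), against 7.81% and 5.78%, and GGAATG in 5 (12.8%), against 14.7% and 12.7%. GGGCGG was in 22 (56.4%), against 35.7% and 57.1%. A match of letters is a description and not a binding site, and windows of different starts of a gene can overlap.

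The shares of chains within a pair, which do not depend on how the libraries are scaled, moved toward Lama3 among the alpha chains. Lama3 held 7.71% of the reads of Lama3 and Lama5 in the control library (7.04% to 8.43%) and 29.2% in the DSS library (28.0% to 30.5%). Against Lamb2, Lamb3 held 90.8% and 99.6%, and against Lamb1 98.4% and 98.3%, with intervals that overlapped for Lamb1. Corrected for transcript length, the Lama3 share was 8.28% and 30.8%. Lama5 was thus the more abundant alpha chain per length in both libraries.

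**Figure D2:**
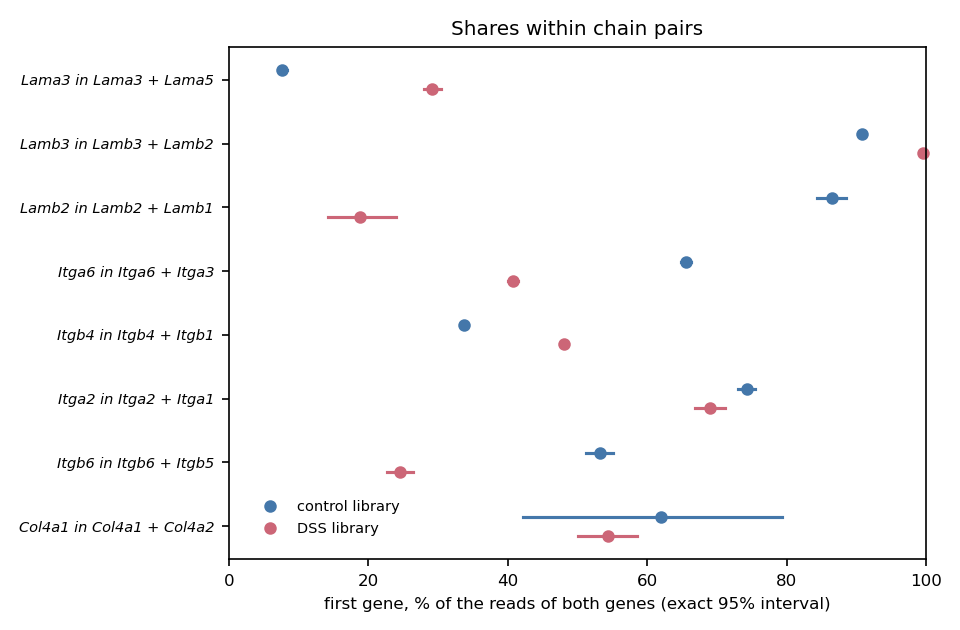
Share of the first gene in the reads of each pair, in percent, with exact 95% intervals, in the control (blue) and DSS (red) libraries. The Lama3 share moved from 7.71% to 29.2%, the Itga6 share from 65.6% to 40.8% and the Itgb6 share from 53.2% to 24.5%, and the intervals of the Col4a1 share overlap.

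Levels of different genes were compared as TMM-scaled CPM per kilobase of the longest protein-coding transcript in GENCODE. The highest of the 43 subunit and chain genes was Itgb1 in both libraries, at 75.5 (control) and 67.2 (DSS). In the control library Itga6 at 42.0, Lamb3 at 26.1, Itgb4 at 23.7 and Itga3 at 19.5 came next, and in the DSS library Lamb3 at 48.3, Itgb4 at 38.3, Itga3 at 36.8 and Itga6 at 28.6. Laminin beta chains summed to 28.7 and 49.2 and alpha chains to 7.19 and 8.20. Lama3 was at 0.595 and 2.53, far below its partner Lamb3. The longest Lama3 transcript has 10548 bases, and a shorter isoform would raise its level on this scale. Col4a1 and Col4a2, at 0.0380 and 0.0238 in the control library and 0.841 and 0.723 in the DSS library, were below Lama3, Lama5, Lamb3 and Lamc1 in both. They were below Lamb1 and Lamb2 in the control library and above them in the DSS library.

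**Figure D3:**
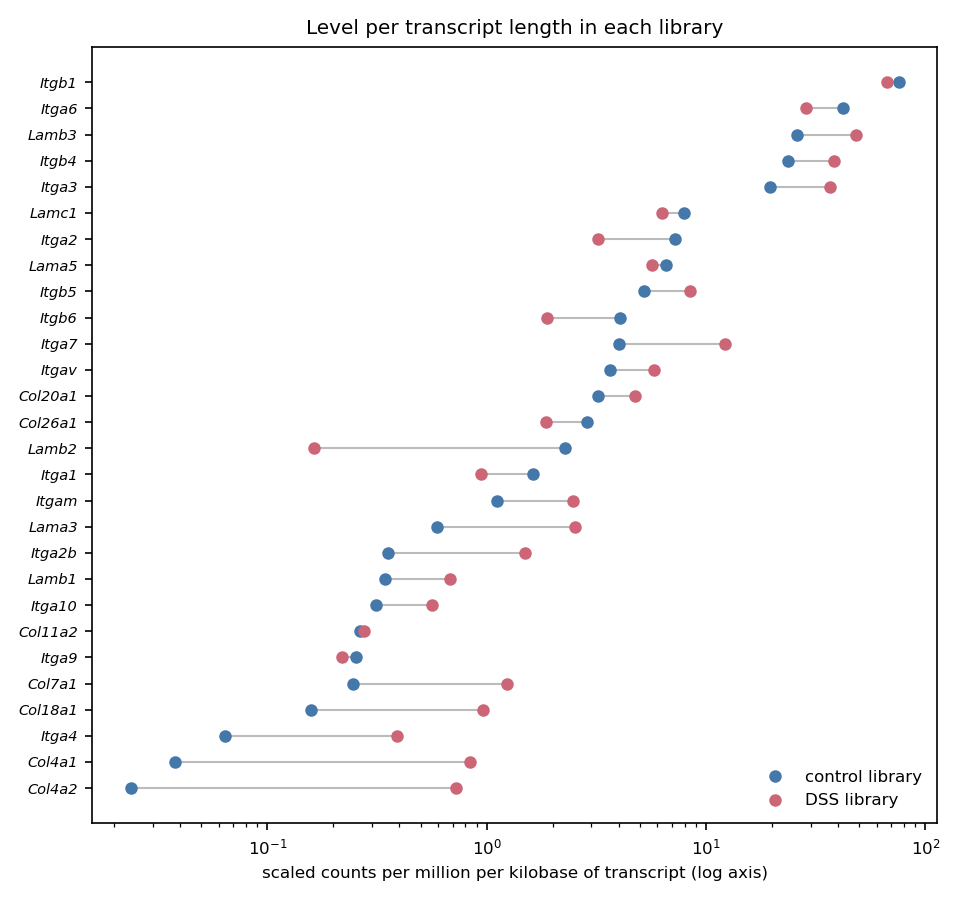
TMM-scaled CPM per kilobase of transcript (log axis) of 28 subunit and chain genes that reached 100 counts in either library, with the control library in blue and the DSS library in red, in order of the control level. Itgb1 is highest in both libraries, and Col4a1 and Col4a2 are lowest in the control library at 0.0380 and 0.0238.

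The receptors for laminin carried most of the integrin reads. Itgb1, the beta subunit shared by most matrix-binding integrins, had 20623 counts (control) and 14015 (DSS), a log2 ratio of -0.17 (-0.20 to -0.14). Itgb4, the subunit particular to hemidesmosomes, had 10515 and 12993 counts and a ratio of 0.69 (0.66 to 0.73). Its only alpha partner, Itga6, went the other way, with 12941 and 6740 counts and a ratio of -0.55 (-0.60 to -0.51). Itga3, which pairs with Itgb1 to bind the same laminins, had 6789 and 9792 counts and a ratio of 0.92 (0.87 to 0.96), and reached 1.01 with upper quartile scaling. The order of the alpha subunits was therefore reversed, with Itga6 at 65.6% of the reads of the pair in the control library (64.9% to 66.3%) and 40.8% in the DSS library (40.0% to 41.5%). Per length the shares were 68.3% and 43.7%. Itgb4 held 33.8% of the reads of Itgb4 and Itgb1 (33.2% to 34.3%) in the control library and 48.1% in the DSS library (47.5% to 48.7%). Itga7, a laminin receptor best known from muscle, had 1152 and 2686 counts and a ratio of 1.61 (1.51 to 1.71). The smooth muscle markers Des and Myh11 were not listed, and Acta2 had 4 and 20 counts.

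The receptors for collagen were lower, apart from one with few counts. Itga2, the main collagen receptor of epithelia, had 3687 and 1252 counts and a log2 ratio of -1.17 (-1.26 to -1.08). Itga1, which prefers type IV collagen, had 1274 and 562 counts and a ratio of -0.79 (-0.94 to -0.65), and -1.05 with total counts. In RefSeq the gene Pelo lies over Itga1, so reads of one may be counted for the other. The same holds for Galk1 over Itgb4, Mettl7b over Itga7, Cerkl over Itga4 and Haspin over Itgae. It also holds for Tcfl5 over Col9a3, and for Asap2 and Cpsf3 over Itgb1bp1. Itga2 held 74.3% of the reads of Itga2 and Itga1 (73.1% to 75.5%) and then 69.0% (66.8% to 71.1%), so Itga2 was the more lowered of the pair. Itga10 had 113 and 155 counts and a ratio of 0.84 (0.49 to 1.21). The summed counts of the 3 genes were 5074 and 1969, or 70.9 and 36.0 CPM, while those of the 4 laminin-binding subunits were 439 and 589 CPM. The ratios of Itga1 and Itga2 thus had the opposite sign to those of Col4a1 and Col4a2.

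Subunits that bind RGD proteins such as fibronectin and vitronectin were mixed. Itgav had 1833 and 2237 counts and a log2 ratio of 0.68 (0.59 to 0.77), and its partner Itgb5 had 1227 and 1517 and a ratio of 0.69 (0.59 to 0.80). Itgb6, the epithelial partner of Itgav that frees active TGF-beta, had 1397 and 493 counts and a ratio of -1.11 (-1.27 to -0.96). Of the reads of Itgb5 and Itgb6, Itgb6 held 53.2% in the control library (51.3% to 55.2%) and 24.5% in the DSS library (22.7% to 26.5%). Itga2b, known as the alpha subunit of the platelet fibrinogen receptor, had 87 and 282 counts and a ratio of 2.09 (1.73 to 2.45). Its beta partner Itgb3 was not listed. Itga5, the fibronectin receptor subunit, had 13 and 4 counts, and Itgb8 was not listed.

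The integrins of leukocytes were listed at low counts. Itgam, which marks myeloid cells, had 375 and 631 counts and a log2 ratio of 1.14 (0.95 to 1.33), which was 0.88 with total counts. Its beta partner Itgb2 and the pan-leukocyte marker Ptprc were not listed. Itgae and Itgb7, the subunits of the receptor by which intraepithelial lymphocytes hold E-cadherin, had 25 and 7 counts and 26 and 12 counts, and Itgal had 38 and 43. Itga4, found on leukocytes and on other cells, had 45 and 208 counts and a ratio of 2.60 (2.13 to 3.10), the highest of the integrins, and Itga9 had 128 and 84 counts and a ratio of -0.22 (-0.63 to 0.19). Among leukocyte markers Cd68 had 491 and 621 counts and Lyz2 137 and 71.

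The 4 genes that matched by symbol only were described apart. Col4a3bp encodes a ceramide transfer protein and had 3815 and 3978 counts and a log2 ratio of 0.45 (0.38 to 0.51). Itgb1bp1, whose product binds the tail of the Itgb1 subunit and holds it inactive, had 500 and 222 counts and a ratio of -0.78 (-1.02 to -0.55). Itgb3bp, a centromere protein, had 435 and 141 counts and a ratio of -1.24 (-1.52 to -0.96). Itgb1bp2, a muscle protein, had 33 and 26 counts and a ratio of 0.04 that changed sign with total counts. Without these 4 genes, 16 of 43 reached 1 and 5 reached -1.

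The partners of the 3 families were followed in lists of related genes, read against 19.3% of all genes past 1 and 20.2% past -1. The hemidesmosome list of 8 genes had 6 above the count minimum, of which 3 reached a ratio of 1 and 0 reached -1, and 3 of the 6, Itga6, Itgb4 and Col17a1, are described above. Those that reached 1 were Dst, Plec and Col17a1, the last at 1.01 (0.26 to 1.78). The list had a median log2 ratio of 0.85. Dst and Plec, the plakins that join Itgb4 to the cytoskeleton, had 1571 and 8159 counts and 9377 and 32605 counts, with ratios of 2.77 (2.69 to 2.84) and 2.19 (2.15 to 2.22). The tetraspanin Cd151, a gene outside the naming rule, had 5433 and 5270 counts and a ratio of 0.34 (0.29 to 0.40). Krt5 and Krt14 were not listed.

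Other basement membrane genes held the largest contrast of these lists. Of 10 genes, 3 reached 1 and 3 reached -1. Among those at 1 or more, Sparc, outside the naming rule, had 4 and 12 counts. It met the minimum through the DSS library only. Nid1, the nidogen that bridges laminin and type IV collagen, had 358 and 7597 counts and a log2 ratio of 4.80 (4.64 to 4.95), between those of Col4a1 and Col4a2. Npnt, an extracellular ligand of integrins in the kidney and other epithelia, had 732 and 45 counts and a ratio of -3.64 (-4.10 to -3.20). Outside the naming rule, and named after the values were seen, the heparan sulfate proteoglycan genes Agrn and Hspg2 differed in direction, with 16094 and 25687 counts and 5249 and 1038 counts.

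Matrix receptors outside the integrins had 0 of 7 genes past 1 and 3 past -1, with a median log2 ratio of -0.37. Rpsa, a ribosomal protein once described as a laminin receptor, had 170880 and 37179 counts and a ratio of -1.81 (-1.83 to -1.80), and its many processed copies in the genome make the count uncertain. Cd44, the hyaluronan receptor, had 3607 and 1126 counts and a ratio of -1.29 (-1.39 to -1.19). In the adhesion plaque, where integrins meet actin, 2 of 23 genes lay past 1 and 4 past -1, with a median of 0.13. The plaque genes Tns4, a tensin, and Parva, a parvin, had 2206 and 314 counts and 5380 and 877 counts, with ratios of -2.42 (-2.60 to -2.25) and -2.23 (-2.33 to -2.13).

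Of 10 collagen-modifying genes above the count minimum, 2 lay past 1 and 0 past -1. These were Bmp1, the protease that trims procollagen and laminin chains, with 845 and 2099 counts and a log2 ratio of 1.70 (1.59 to 1.82), and its enhancer Pcolce, with 230 and 568 and a ratio of 1.69 (1.47 to 1.92). Serpinh1, the collagen chaperone, had 7 and 6 counts, and was named after the values were seen. Of 9 matrix proteases and inhibitors, 3 lay past 1 and 2 past -1. Timp3, an inhibitor that binds the matrix, had 959 and 178 counts and a ratio of -2.04 (-2.28 to -1.81), and the Paneth cell protease Mmp7 had 997 and 334 and a ratio of -1.19 (-1.37 to -1.01). Of the integrin ligands, 4 of 8 met the minimum, with Mfge8 at 9672 and 13222 counts and a ratio of 0.84 (0.80 to 0.88) and Thbs1 at 1197 and 672 and a ratio of -0.44 (-0.58 to -0.31). The fibronectin gene Fn1, also named after the values were seen, had 10 and 7 counts.

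**Figure D4:**
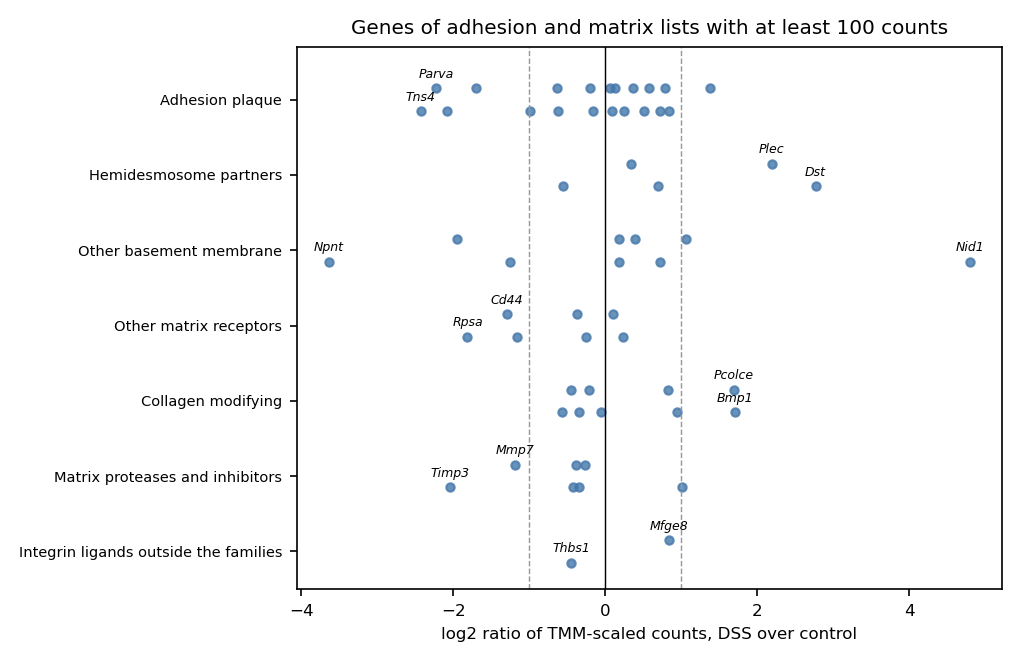
Log2 ratio of TMM-scaled counts, DSS over control, for the genes of 7 adhesion and matrix lists for which either library had 100 counts, 1 point per gene, with the 2 genes of the largest absolute ratio named in each list. Nid1, Dst and Plec lie right of 2, and Npnt, Tns4, Parva and Timp3 lie left of -2.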

How the data were processed

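The deposited values are raw counts of reads per gene, not normalized by the authors, and the single-sample files repeat them. The libraries were made with a TruSeq Stranded mRNA kit. The submitters' processing notes name HISAT2 and StringTie without versions, and the genome build and the strand setting of the counting are not given in the sources used here. Scaling used TMM (edgeR 4.0.16, R 4.3.3). Log2 ratios are given with exact Clopper-Pearson 95% intervals computed with scipy 1.17.1 in Python 3.11.15, from 1 library per condition, without a test. Ratios and intervals were also tried on simulated counts that held counting error only and were scaled by total counts. That could not test TMM scaling or the variation between cultures.

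Genes that reached 100 counts in either library were named, and others where a role had no better member or bore on the cell types present. In each related list the 2 largest absolute ratios among genes that reached 100 counts were named. One of these genes, which is included in the counts, medians and sums, and one marker are not reported here. The genes and lists were chosen with earlier results of these data known. Other scalings tried were upper quartile factors, total counts, the size factors of DESeq2 1.42.0 and centring on the median gene, with other count minimums, thinned control counts and a prior count of 2 as further alternatives. Lengths were taken from GENCODE vM21, and promoters and overlapping genes from RefSeq (GRCm38.p6). RefSeq lists 85 protein-coding genes that match by symbol, of which 36 were not among the genes with counts listed here.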

Additional observations from a re-analysis of the deposited data

How the results depend on the processing

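With 1 library per condition, no value here has a replicate, and the variation between cultures is unknown. No paired analysis was possible because each group has 1 library. The direction of 31 of the 32 genes with at least 100 counts held under every scaling tried, and Col11a2 changed sign with total counts. DESeq2 size factors, a prior count of 2 and thinning left the ratios of these 32 genes within their intervals. Total counts moved 21 of them outside, upper quartile factors 10 and centring on the median gene 5, each by a constant shift. The count at a log2 ratio of 1 or more was 16 and became 10 when at least 50 counts were asked of one library, since fewer genes were then counted. The median of all 47 genes was 0.68, against 0.42 with total counts and 0.77 with upper quartile factors, and that of the laminin chains 0.75, against 0.50 and 0.84. Low counts limit the collagens most, and 9 of the 47 intervals included 0.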
